A study of Mus musculus with 6 samples.

Results

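The cubilin-Dab2 endocytic receptor machinery was followed through 6 genes, *Cubn*, *Amn*, *Lrp2*, *Dab2*, *Lrpap1* and *Fcgrt*, which were picked out by symbol from a table of read counts for 54715 mouse genes. All 6 symbols were found, and all 6 were among the 16758 genes that passed the filter on low counts. The genes were selected on measured values: the difference between the genotypes in these same libraries was known when they were chosen. Their levels and differences are therefore a description, and no test of the genotypes is given for them.

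The RNA came from mouse advanced embryonic stem cells (ASCs), which are pluripotent cells cultured with leukemia inhibitory factor, CHIR99021, BMP4 and activin A. The line was derived from a female 129/sv mouse crossed with a GOF/GFP male and carries an Oct4-GFP reporter, in wild-type (WT) and knockout cells alike. The series holds 3 libraries of WT ASCs and 3 of *Bdh2*-knockout ASCs, in which CRISPR/Cas9 had deleted part of both alleles of *Bdh2*, a gene for a 3-hydroxybutyrate dehydrogenase. The knockout cells were 1 line grown from a picked colony, so genotype and clone cannot be told apart, and the labels do not say whether replicates were separate cultures. Where they were not, p-values measure only the spread between these libraries, which may be technical.

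Counts assigned to genes totalled 18927748 in the shallowest library and 28333541 in the deepest. At this depth 3 counts correspond to 0.106 to 0.158 CPM (counts scaled to a common library size), taken here as the smallest level that can be told from counting error. CPM values below were scaled by the library total and a TMM factor unless stated otherwise. *Bdh2* transcripts were counted in both genotypes, at 10.5, 9.56 and 8.27 CPM in WT ASCs and 5.95, 4.99 and 5.38 CPM in *Bdh2*-knockout ASCs. The genotypes did not overlap, and the log2 fold change of *Bdh2* was -0.79 (SE 0.12, edgeR adjusted p = 2.46e-04). Pluripotency markers, among them *Pou5f1*, *Sox2* and *Nanog*, summed to between 7180 and 7450 CPM of the library total, and 0 of the 10 were at 0 in any library. One set of transcripts set libraries apart within a genotype. In WT ASCs, markers of adult hepatocytes summed to 602, 370 and 57.0 CPM in replicates 1, 2 and 3, and in the knockout to 45.0, 168 and 31.9 CPM. *Alb*, the gene for serum albumin, led them with 6423, 3985 and 556 counts against 476, 2407 and 208. WT ASC replicates 1 and 2 and *Bdh2*-knockout ASC replicate 2 thus stood apart. The values of the 6 genes are given for every library.

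Cubilin is a very large extracellular protein with no transmembrane segment. It is carried to the cell surface and held there by amnionless, and the complex of both is called cubam. Megalin, encoded by *Lrp2*, is a giant transmembrane receptor of the low density lipoprotein (LDL) receptor family that takes up many of the same ligands and works beside cubam. Dab2 is a cytosolic adaptor that binds NPXY-type motifs in the tails of megalin and amnionless and links them to the clathrin coat. The chaperone RAP, encoded by *Lrpap1*, keeps megalin and its relatives from binding ligand in the endoplasmic reticulum. The neonatal Fc receptor, encoded by *Fcgrt*, binds immunoglobulin G and albumin in acidic endosomes, pairs with beta-2 microglobulin, and returns its cargo to the surface. Absorptive epithelia use this machinery, best known in the kidney proximal tubule and in the visceral endoderm of the early mouse embryo, where Dab2 is also a common marker of primitive endoderm.

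The promoters of the receptor genes and of the adaptor are shown because these genes were higher together in *Bdh2*-knockout ASCs and they differ in base composition. Each is the RefSeq sequence of GRCm38.p6 from 250 bases before to 50 bases after the annotated start, written 5′ to 3′ on the gene's own strand. Capitals mark GATAA, a core of sites of GATA factors, on either strand, and CACGTG, an E-box. *Cubn* is at chr2:13491827-13492126 on the minus strand, *Amn* at chr12:111270846-111271145 on the plus strand and *Lrp2* at chr2:69585980-69586279 on the minus strand. *Dab2* has 2 starts in this table, with promoters at chr15:6299539-6299838 and chr15:6386498-6386797, both on the plus strand.
Cubn: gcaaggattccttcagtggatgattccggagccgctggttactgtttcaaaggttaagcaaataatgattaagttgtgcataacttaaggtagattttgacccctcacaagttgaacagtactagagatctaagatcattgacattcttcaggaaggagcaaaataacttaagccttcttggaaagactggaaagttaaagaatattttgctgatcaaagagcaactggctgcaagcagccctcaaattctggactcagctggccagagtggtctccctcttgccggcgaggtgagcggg
Amn: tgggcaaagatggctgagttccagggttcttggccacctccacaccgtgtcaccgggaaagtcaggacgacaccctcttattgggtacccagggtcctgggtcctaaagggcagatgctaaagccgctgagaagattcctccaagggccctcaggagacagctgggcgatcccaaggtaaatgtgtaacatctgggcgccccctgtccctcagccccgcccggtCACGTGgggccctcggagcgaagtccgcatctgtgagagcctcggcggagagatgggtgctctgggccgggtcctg
Lrp2: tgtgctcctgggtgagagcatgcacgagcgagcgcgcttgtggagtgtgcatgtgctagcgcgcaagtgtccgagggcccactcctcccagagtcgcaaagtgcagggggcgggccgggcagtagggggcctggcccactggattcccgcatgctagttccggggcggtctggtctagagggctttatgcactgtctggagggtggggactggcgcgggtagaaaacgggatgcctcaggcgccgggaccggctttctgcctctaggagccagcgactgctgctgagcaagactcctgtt
Dab2, first start: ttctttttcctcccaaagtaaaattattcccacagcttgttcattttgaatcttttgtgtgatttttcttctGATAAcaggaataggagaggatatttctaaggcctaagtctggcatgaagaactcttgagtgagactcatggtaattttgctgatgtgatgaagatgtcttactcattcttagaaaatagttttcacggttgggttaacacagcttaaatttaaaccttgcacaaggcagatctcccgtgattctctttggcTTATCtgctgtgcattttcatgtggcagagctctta
Dab2, second start: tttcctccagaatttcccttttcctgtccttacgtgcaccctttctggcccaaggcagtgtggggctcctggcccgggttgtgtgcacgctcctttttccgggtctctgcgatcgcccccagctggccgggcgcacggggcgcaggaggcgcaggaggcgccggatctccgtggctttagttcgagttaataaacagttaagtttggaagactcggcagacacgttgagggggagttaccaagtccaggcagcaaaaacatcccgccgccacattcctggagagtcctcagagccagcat
The *Cubn* promoter was 44.3% G or C with a ratio of observed to expected CpG of 0.344, and the first *Dab2* promoter was 37.7% G or C with a ratio of 0.188. Both lie below the medians of 52.7% and 0.384 over 32851 mouse promoters of the same length. The *Amn*, *Lrp2* and second *Dab2* promoters lie above them, with 62.3%, 65.0% and 59.3% G or C and ratios of 0.515, 0.652 and 0.720. The letters GATAA occur in 25.4% of all these promoters, and were found in the first *Dab2* promoter, beginning 178 bases before and 14 bases after the start, and in that of *Lrpap1*, 191 bases before it. CACGTG occurs in 7.15% of promoters and was found in that of *Amn*, 26 bases before the start. The letters ACAAT, a core of sites of SOX factors found on either strand in 31.0% of promoters, were not in the window of any of the 6 genes. The motifs were chosen after the sequences had been seen, and a match of letters is not a site.

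*Cubn* showed the largest difference of the 6 genes. It was counted at a low level in WT ASCs and at more than 11 CPM in every knockout library. *Cubn* (ENSMUSG00000026726) lies on the minus strand of chromosome 2 of GRCm38 from 13276338 to 13491813, and its longest transcript has 67 exons. WT ASC replicates 1, 2 and 3 held 13, 23 and 27 of its counts, which is 0.670, 1.14 and 1.07 CPM. The knockout replicates 1, 2 and 3 held 317, 419 and 308, or 11.5, 15.4 and 12.9 CPM. Every WT library was thus above the level of 3 counts, and every knockout library was far above every WT library. The mean went from 0.959 ± 0.253 CPM (SD, n = 3) to 13.2 ± 1.96 CPM (SD, n = 3), a ratio of 13.8 and a log2 difference of 3.77 (95% interval 3.38 to 4.16). Of the 16758 genes tested, *Cubn* ranked 4 from the highest by this difference. In WT ASC replicate 1 the 13 counts had an exact 95% Poisson interval of 0.357 to 1.15 CPM, which covers counting error only and holds the value of both other WT libraries. Between the libraries with fewest hepatocyte transcripts, *Cubn* was at 1.07 CPM in WT replicate 3, against 11.5 and 12.9 CPM in knockout replicates 1 and 3.

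*Amn* (ENSMUSG00000021278), the partner that anchors cubilin, lies on the plus strand of chromosome 12 from 111271095 to 111276426, and its longest transcript has 12 exons. Its level was 2.22, 2.23 and 1.58 CPM in the WT libraries and 4.94, 4.73 and 4.88 CPM in the knockout libraries, in the order of replicates 1, 2 and 3. The knockout libraries lay close together and above all WT libraries. The mean went from 2.01 ± 0.369 CPM (SD, n = 3) to 4.85 ± 0.107 CPM (SD, n = 3), a ratio of 2.41 and a log2 difference of 1.28 (95% interval 0.91 to 1.65). Both parts of cubam were thus higher in every knockout library than in any WT library.

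*Lrp2* (ENSMUSG00000027070), which encodes megalin, lies on the minus strand of chromosome 2 from 69424340 to 69586065 and has 79 exons in its longest transcript. It was at 7.26, 11.4 and 7.88 CPM in WT ASCs and at 28.8, 38.3 and 31.7 CPM in *Bdh2*-knockout ASCs. Replicate 2 was the highest library of each genotype, and no WT library reached the lowest knockout library. The mean went from 8.86 ± 2.26 CPM (SD, n = 3) to 32.9 ± 4.89 CPM (SD, n = 3), a ratio of 3.72 and a log2 difference of 1.90 (95% interval 1.59 to 2.20). The spread of *Lrp2* was wider than counting gives: its variance was 11.8 times the counting variance in WT ASCs and 19.8 times in *Bdh2*-knockout ASCs. For *Cubn* these values were 1.33 and 7.91, and for *Amn* they were 1.6 and 0.0636.

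*Dab2* (ENSMUSG00000022150), the adaptor, lies on the plus strand of chromosome 15 from 6299788 to 6440712 and has 15 exons in its longest transcript. It was at 2.42, 2.28 and 2.53 CPM in WT ASCs and at 14.2, 15.6 and 14.5 CPM in *Bdh2*-knockout ASCs. Replicates lay close together in both genotypes, with coefficients of variation of 5.28% and 5.03%, and the genotypes were far apart. The mean went from 2.41 ± 0.127 CPM (SD, n = 3) to 14.8 ± 0.743 CPM (SD, n = 3), a ratio of 6.13 and a log2 difference of 2.61 (95% interval 2.37 to 2.85), which ranked 20 from the highest of the 16758 genes. The counts are per gene, so it is not known from which of the 2 starts shown above they came.

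*Lrpap1* (ENSMUSG00000029103), the chaperone, lies on the minus strand of chromosome 5 from 35091501 to 35105766 and has 8 exons in its longest transcript. It was the most abundant of the 6 genes and the one with the smallest difference. It was at 72.8, 65.6 and 66.9 CPM in WT ASCs and at 99.1, 111 and 101 CPM in *Bdh2*-knockout ASCs, so every knockout library was above every WT library. The mean went from 68.5 ± 3.85 CPM (SD, n = 3) to 104 ± 6.48 CPM (SD, n = 3), a ratio of 1.52 and a log2 difference of 0.60 (95% interval 0.47 to 0.73).

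*Fcgrt* (ENSMUSG00000003420), the recycling receptor, lies on the minus strand of chromosome 7 from 45092990 to 45103851 and has 7 exons in its longest transcript. It was the only one of the 6 genes with a lower level in *Bdh2*-knockout ASCs. It was counted 66, 57 and 88 times in WT ASCs, or 3.40, 2.82 and 3.48 CPM, and 22, 47 and 27 times in *Bdh2*-knockout ASCs, or 0.799, 1.72 and 1.13 CPM. Knockout replicate 2 was the highest of its genotype but stayed below every WT library. The mean went from 3.24 ± 0.359 CPM (SD, n = 3) to 1.22 ± 0.469 CPM (SD, n = 3), so the WT level was 2.66 times that of the knockout, with a log2 difference of -1.41 (95% interval -1.96 to -0.86). Its spread in the knockout was the widest of the 6 genes, with a coefficient of variation of 38.6%, and the exact Poisson intervals of replicate 1 (0.500 to 1.21 CPM) and replicate 2 (1.27 to 2.29 CPM) did not meet.

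**Figure D1:**
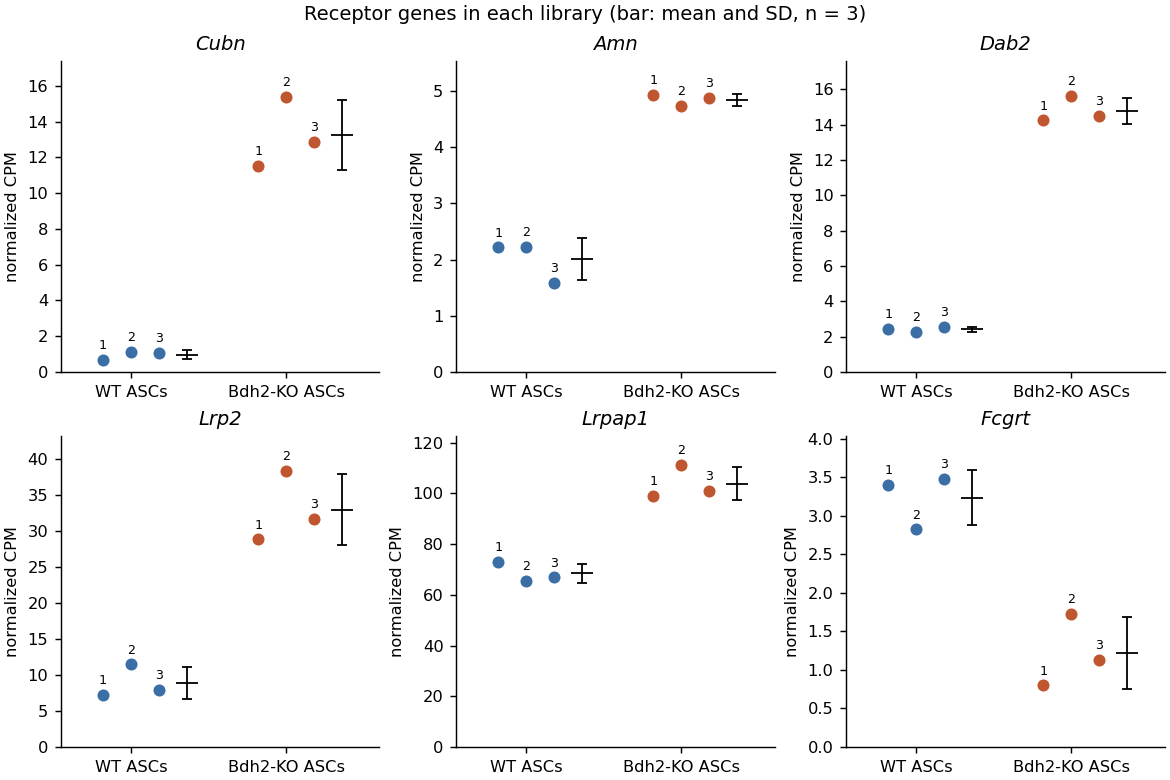
Normalized CPM (vertical axis, from 0 in each panel) of the 6 receptor genes in WT ASCs (blue) and *Bdh2*-knockout ASCs (orange). Points are libraries with their replicate number, and the bars beside them give the mean and SD of 3 libraries. The genotypes do not overlap in any panel, and *Fcgrt* alone is lower in the knockout.

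The genotypes did not overlap in 6 of the 6 genes, where 52.4% of all genes tested did not overlap. By edgeR at an adjusted p under 0.05, 41.7% of all genes tested were called, 21.0% higher and 20.8% lower in *Bdh2*-knockout ASCs. That is 3518 and 3478 genes, and scaling by library totals without TMM turned the balance to 2731 higher and 4451 lower. Since the 6 genes were chosen on this contrast, nothing is read from their count beside these shares. The same holds for their ranks by log2 difference. From the highest these were 4 for *Cubn*, 20 for *Dab2*, 61 for *Lrp2*, 190 for *Amn* and 1056 for *Lrpap1*, and *Fcgrt* ranked 288 from the lowest. *Bdh2*-knockout ASC replicate 2 was the highest library of its genotype for *Cubn*, *Dab2*, *Lrp2*, *Lrpap1* and *Fcgrt* and the lowest for *Amn*. It was also the knockout library with most hepatocyte transcripts, and the part of these in the values was not tested. When a hepatocyte score was added to the model, the log2 differences were 3.91 for *Cubn*, 1.41 for *Amn*, 2.08 for *Lrp2*, 2.65 for *Dab2*, 0.68 for *Lrpap1* and -1.29 for *Fcgrt*.

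By sequence, 0% of the 50-base stretches of the longest transcripts of the 6 genes occur in transcripts of other genes. Genes on the opposite strand overlap *Cubn* (Gm13270, on 2.46% of its exon bases) and *Dab2* (Gm16311 and Gm18888, on 2.87%). Whether counting used strand is not given in the sources used here, so reads from these short stretches cannot be told apart.

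Per length of transcript the 6 genes changed their order between the genotypes. Levels were set side by side as FPKM, which divides by the gene length listed in the table. In WT ASCs, *Lrpap1* was highest at 16.6 ± 0.935 FPKM (SD, n = 3) and *Fcgrt* next at 1.54 ± 0.171, followed by *Amn* at 1.09 ± 0.20, *Lrp2* at 0.531 ± 0.135, *Dab2* at 0.328 ± 0.0174 and *Cubn* at 0.0642 ± 0.0170. No neighbours in this order overlapped between their libraries. In *Bdh2*-knockout ASCs, *Lrpap1* was again highest at 25.2 ± 1.58 FPKM, and *Amn* was next at 2.63 ± 0.0578. *Dab2* at 2.01 ± 0.101 and *Lrp2* at 1.97 ± 0.293 overlapped, and so did the lowest genes, *Cubn* at 0.887 ± 0.131 and *Fcgrt* at 0.579 ± 0.223. *Fcgrt* thus stood second in WT ASCs and last in *Bdh2*-knockout ASCs, where its place below *Cubn* was within the spread of replicates. The listed lengths cover all exons of a gene, 14935 bases for *Cubn* where the longest transcript has 11262, so FPKM values rest on that choice.

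**Figure D2:**
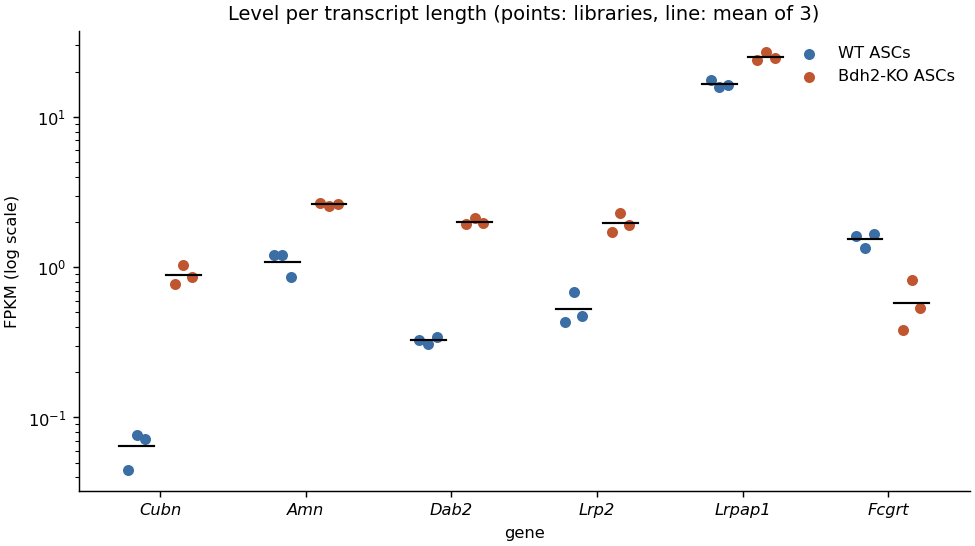
Level per transcript length of the 6 receptor genes in FPKM on a log axis, with points for libraries (WT ASCs blue, *Bdh2*-knockout ASCs orange) and lines for the mean of 3. *Cubn* moves from 0.0642 to 0.887 FPKM, whereas *Lrpap1* stays on top at 16.6 and 25.2 FPKM.

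The ratios between partners were far from fixed. The *Amn* to *Cubn* ratio of FPKM was 26.8, 15.9 and 12 in WT ASCs and 3.48, 2.49 and 3.08 in *Bdh2*-knockout ASCs, so *Amn* was in excess of *Cubn* in every library but by less in the knockout. The *Lrp2* to *Cubn* ratio was 9.70, 8.98 and 6.59 in WT ASCs. In *Bdh2*-knockout ASCs it was 2.24, 2.23 and 2.20, or 2.22 ± 0.0176 (SD, n = 3). The coefficients of variation of *Lrp2* and *Cubn* over these libraries were 14.9% and 14.8%. The 317 *Cubn* counts of knockout replicate 1 had an exact Poisson interval of 283 to 354 counts. Relative to its value, that interval is far wider than the spread of the knockout ratios. Their closeness is therefore tighter than counting error gives and is not read as a link between the genes. The *Lrpap1* to *Lrp2* ratio, chaperone to receptor, was 32.8 ± 8.83 (SD, n = 3) in WT ASCs and 12.9 ± 1.10 (SD, n = 3) in *Bdh2*-knockout ASCs. The *Dab2* to *Lrp2* ratio, adaptor to receptor, was 0.648 ± 0.169 (SD, n = 3) in WT ASCs and 1.03 ± 0.0989 (SD, n = 3) in *Bdh2*-knockout ASCs. These are ratios of RNA levels, and protein was not measured here.

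**Figure D3:**
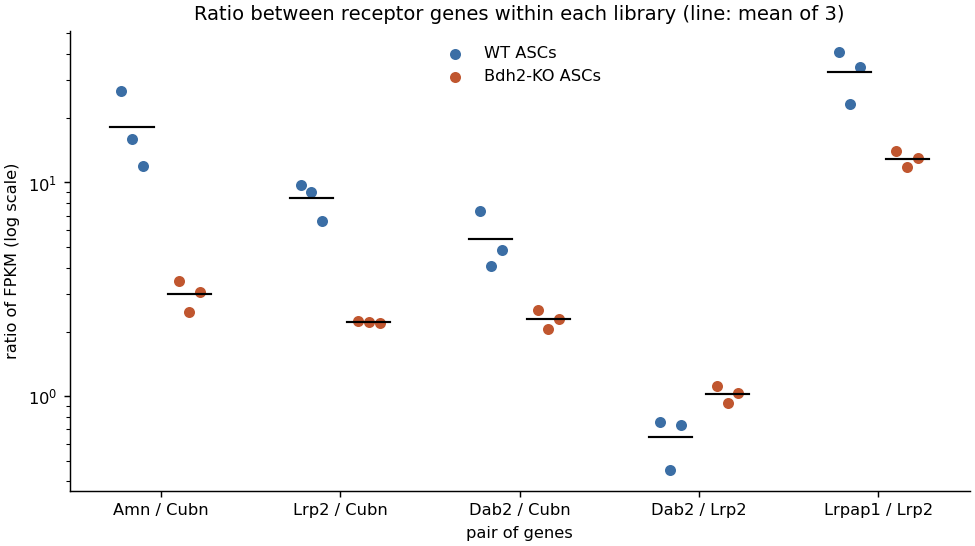
Ratio of FPKM between pairs of receptor genes within each library, on a log axis, with points for libraries (WT ASCs blue, *Bdh2*-knockout ASCs orange) and lines for the mean of 3. The 3 knockout points of the *Lrp2* to *Cubn* pair lie at 2.24, 2.23 and 2.20, below every WT point. Their closeness to each other is tighter than counting error gives and is not read as a result.

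The genes most like each receptor gene were sought among the 16757 other tested genes, by the root mean square difference of log2 CPM over the 6 libraries after each gene's WT mean had been subtracted. Nearest to *Cubn* was *Pth1r*, the receptor of parathyroid hormone and its related peptide, at a distance of 0.43. It was at 0.721, 0.842 and 1.19 CPM in WT ASCs and 9.04, 8.58 and 8.97 CPM in *Bdh2*-knockout ASCs. Then came the growth factor gene *Fgf5* at 0.53 and an unannotated transcript of the table at 0.56. Distances were smallest for *Lrpap1*, with *Folr1*, a folate receptor that is itself endocytic, at 0.02, the growth factor binding protein gene *Fgfbp1* at 0.04 and *Mat2a*, an S-adenosylmethionine synthetase gene, at 0.04. *Folr1* was at 18.5, 16.7 and 16.6 CPM in WT ASCs and 25.2, 27.6 and 24.9 CPM in *Bdh2*-knockout ASCs. For *Dab2* these were the imprinted noncoding RNA gene *Peg13* (0.15), the autotaxin gene *Enpp2* (0.23) and the imprinted noncoding RNA gene *H19* (0.25). For *Lrp2* they were the heparan sulfate sulfotransferase gene *Hs3st1* (0.12), the forkhead gene *Foxq1* (0.17) and *Flt1*, a VEGF receptor gene (0.18). For *Amn* they were *Fam196b* (0.08), the myosin gene *Myo7a* (0.09) and the homeobox gene *Pitx1* (0.12). For *Fcgrt* they were the predicted genes *Gm43012* (0.19), *Gm12208* (0.19) and *Gm13657* (0.20), all under 1.2 CPM in every library. Each distance covers 6 libraries of 2 genotypes and describes a like pattern only. It also depends on the size of a gene's difference and on its counts, so distances are not compared between the 6 genes. The smallest were picked from 16757 genes and can lie within counting error.

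The nearest tested protein-coding genes on the chromosome were picked with the values of the 6 genes known. For *Rsu1*, 4.92 kb from *Cubn*, the log2 fold change was 0.18 (adjusted p = 0.016), and for *Trdmt1*, 17.2 kb away on the other side, -0.04 (adjusted p = 0.753). Beside *Amn*, *Traf3* at 3.94 kb had 0.25 (adjusted p = 0.0173) and *Cdc42bpb* at 16.6 kb had 0.16 (adjusted p = 0.0436). The calls of these neighbours were lost with library totals and with the hepatocyte covariate. They were also lost for *Rsu1* without WT ASC replicate 2 (adjusted p = 0.0644) or knockout replicate 1 (0.0594) and for *Traf3* without WT ASC replicate 1 (0.0662) or knockout replicate 2 (0.0617). That of *Cdc42bpb* was lost without WT ASC replicate 1 (0.147) or 2 (0.0755) or knockout replicate 1 (0.0723) or 2 (0.165). Beside *Lrp2*, *Bbs5* at 61.1 kb had -0.23 (adjusted p = 0.0987), and *Abcb11*, the bile salt export pump of hepatocytes, had -1.81 (adjusted p = 0.0853), or 0.63 with the hepatocyte covariate. Without WT ASC replicate 3 both passed (adjusted p = 0.041 for *Bbs5* and 0.0069 for *Abcb11*), as did *Abcb11* without knockout replicate 2 (0.0146). *Bbs5* also passed with library totals (0.0436), and *Abcb11* without the filter on low counts (6.52e-06). *Rictor*, 268 kb from *Dab2*, had 0.02 (adjusted p = 0.843), or -0.04 with library totals. *Rcn3*, 0.769 kb from *Fcgrt*, was lower in the knockout like *Fcgrt* itself, from 38.5 ± 3.01 to 26.8 ± 2.59 CPM (log2 fold change -0.52, adjusted p = 1.66e-04). The neighbours of *Lrpap1* were *Dok7* and *Hmx1*, both under 1 CPM on average in each genotype.

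Around the receptors, 8 lists of genes were followed, without the 6 genes themselves, and each count was read against the 41.7% of all genes that were called. The LDL receptor family, to which megalin belongs, with its chaperone *Mesd*, had 13 tested genes. Among them 2 rose and 6 fell in the knockout, which is 61.5%. Their median log2 fold change was -0.14, where that of all tested genes was -0.01, and with library totals 1 rose and 8 fell. *Lrp4* was among the genes that rose (log2 fold change 0.22, adjusted p = 0.0183). The largest falls were those of *Vldlr*, the very low density lipoprotein receptor, from 22.6 ± 2.29 to 10.4 ± 2.24 CPM (-1.13, adjusted p = 2.43e-05), of *Lrp11* (-0.50, adjusted p = 1.59e-05) and of the Wnt co-receptor gene *Lrp5* (-0.23, adjusted p = 0.00203). For *Mesd* the log2 fold change was 0.01 (adjusted p = 0.846). The count was 5 without *Bdh2*-knockout ASC replicate 1 or 2 and 4 without replicate 3, and the call of *Lrp4* was lost without WT ASC replicate 2 (adjusted p = 0.0609) or knockout replicate 2 (0.0518) or 3 (0.0724), with library totals (0.0716) and with the hepatocyte covariate (0.129).

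The clathrin coat and its cargo adaptors had 33 tested genes, of which 10 rose and 6 fell (48.5%), and the median log2 fold change was 0.04, or -0.01 when libraries were scaled by their totals alone, under which 5 rose and 6 fell. The largest rises were those of *Bin1*, an amphiphysin that bends membranes (0.73, adjusted p = 2.31e-06), of *Ap2m1*, the AP2 subunit that reads tyrosine-based sorting signals (0.59, adjusted p = 2.12e-06), and of the clathrin heavy chain gene *Cltc* (0.33, adjusted p = 3.58e-04). *Ap2m1* was at 177, 166 and 183 CPM in WT ASCs and 260, 266 and 268 CPM in *Bdh2*-knockout ASCs. The largest falls were those of the adaptor gene *Gulp1* (-0.53, adjusted p = 0.021), of *Fcho2*, which nucleates clathrin pits (-0.34, adjusted p = 9.74e-04), and of *Gipc1*, which couples receptor tails to myosin VI (-0.32, adjusted p = 9.64e-04). *Numb*, whose protein like Dab2 has a phosphotyrosine-binding domain, did not pass the test, at 25.1 ± 0.858 and 25.4 ± 0.916 CPM (0.02, adjusted p = 0.828). For *Myo6*, the myosin VI gene, the log2 fold change was -0.02 (adjusted p = 0.866). The count was 10 without WT ASC replicate 1 and 9 without *Bdh2*-knockout ASC replicate 2, and the call of *Gulp1* was lost without any single library except WT ASC replicate 1 (adjusted p between 0.0502 and 0.0798) and with DESeq2 (0.0501).

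The early and recycling endosome had 39 tested genes, with 10 that rose and 7 that fell (43.6%) and a median of 0.03. With library totals 8 rose and 12 fell, with a median of -0.03. *Ehd2* (0.72, adjusted p = 0.00218), the recycling motor gene *Myo5b* (0.69, adjusted p = 0.00276) and *Ehd3* (0.69, adjusted p = 1.11e-04) rose most. *Rab4b* (-0.91, adjusted p = 0.0107), *Rab5b* (-0.49, adjusted p = 2.44e-05) and *Rab11fip2* (-0.43, adjusted p = 0.0254) fell most, the first a GTPase of fast recycling and the second of early endosomes. *Snx17*, which recycles LDL receptor relatives through their NPXY motifs, went from 68.5 ± 2.93 to 86.9 ± 4.44 CPM (0.34, adjusted p = 3.9e-04). The genes of inherited losses of proximal tubule uptake were *Clcn5* (-0.01, adjusted p = 0.886) and *Ocrl*, which fell by 0.15 on the log2 scale (adjusted p = 0.0345). The count was 9 without *Bdh2*-knockout ASC replicate 2, where the call of *Rab11fip2* was lost (adjusted p = 0.108), as it was without WT ASC replicate 2 (0.0917). The call of *Ocrl* was lost without any single library except WT ASC replicate 2 (adjusted p between 0.0657 and 0.138), with DESeq2 (0.095), without the filter on low counts (0.106) and with the hepatocyte covariate (0.0674), under which that of *Rab4b* was lost as well (0.0718).

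The late endosome and lysosome, where cargo is broken down, had 37 tested genes, with 13 that rose and 4 that fell (45.9%) and a median of 0.10. With library totals the balance turned, with 9 that rose and 11 that fell and a median of 0.05. The protease gene *Ctsh* went from 2.06 ± 0.527 to 4.87 ± 0.221 CPM (1.25, adjusted p = 1.68e-04), followed by the peptidase gene *Tpp1* (0.31, adjusted p = 4.47e-04) and the chloride transporter gene *Clcn7* (0.31, adjusted p = 0.00449). *Lamp2* (-0.50, adjusted p = 1.76e-04), the beta-galactosidase gene *Glb1* (-0.47, adjusted p = 3.69e-05) and the ceramidase gene *Asah1* (-0.29, adjusted p = 9.74e-04) fell most. *Lmbrd1*, which lets vitamin B12 out of lysosomes, stood at a log2 fold change of -0.04 (adjusted p = 0.774). The vacuolar proton pump that acidifies these vesicles had 21 tested genes, of which 5 rose and 3 fell (38.1%), with a median of 0.02. With library totals 3 rose and 4 fell, with a median of -0.04. *Atp6v1a* (0.37, adjusted p = 6.46e-05), *Atp6v0c* (0.33, adjusted p = 0.00163) and *Atp6v0a2* (0.25, adjusted p = 0.00271) rose, whereas *Atp6v1g2* (-1.03, adjusted p = 0.0183), *Atp6v0a4* (-0.53, adjusted p = 0.0111) and *Atp6v1f* (-0.19, adjusted p = 0.0112) fell. The pump's count was 5 without any single library but WT ASC replicate 3, without which it was 10. Calls were lost for *Atp6v1g2* without WT ASC replicate 1 (adjusted p = 0.0776) or knockout replicate 1 (0.0816) or 3 (0.0623), with DESeq2 (0.0523) and with the hepatocyte covariate (0.097), for *Atp6v0a4* without WT ASC replicate 2 (0.0599) or knockout replicate 1 (0.0518), and for *Atp6v1f* without knockout replicate 2 (0.0631).

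Other endocytic and scavenger receptors had 22 tested genes, of which 4 rose and 9 fell (59.1%), with a median of -0.03. *Stra6*, the receptor of retinol-binding protein, was at 0.258, 0.347 and 0.317 CPM in WT ASCs and at 0.871, 0.807 and 1.21 CPM in *Bdh2*-knockout ASCs (1.62, adjusted p = 0.0025). *Mrc2* (0.86, adjusted p = 4.33e-05) and *Mrc1* (0.79, adjusted p = 0.00843), genes of mannose receptors, rose as well. *Folr1*, named above among the genes nearest to *Lrpap1*, was the other gene that rose (0.59, adjusted p = 4.12e-05). *Tfr2* (-0.98, adjusted p = 0.00366), *Ly75* (-0.79, adjusted p = 1.03e-06) and *Sorcs2* (-0.76, adjusted p = 0.0122) fell most. *Cd320*, the receptor that takes up transcobalamin with vitamin B12, fell by 0.23 on the log2 scale (adjusted p = 0.0217). The call of *Sorcs2* was lost without WT ASC replicate 1 (adjusted p = 0.063) or knockout replicate 3 (0.0526), and that of *Cd320* without WT ASC replicate 1 (0.105) or knockout replicate 1 (0.106), 2 (0.053) or 3 (0.0585). With the hepatocyte covariate the adjusted p was 0.234 for *Cd320* and 0.0695 for *Tfr2*.

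**Figure D4:**
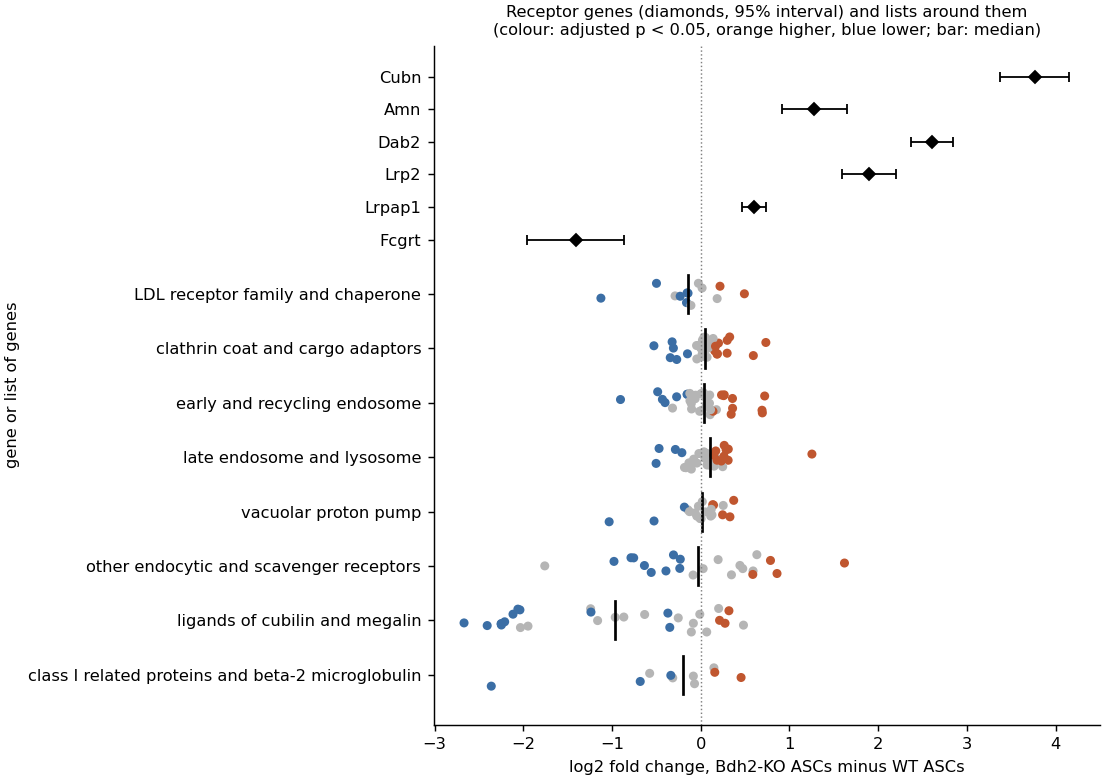
Log2 fold change of *Bdh2*-knockout ASCs against WT ASCs (horizontal axis) for the 6 receptor genes (diamonds with 95% intervals) and for the tested genes of 8 lists (points, coloured where the adjusted p is under 0.05, with a bar at the median). The list medians lie between -0.20 and 0.10 except for the ligands at -0.96. The 6 genes were chosen with this contrast known, so their distance from the lists is not read as a result.

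Of the genes for ligands of cubilin and megalin, 29 were tested, 3 rose and 12 fell (51.7%), and the median log2 fold change was -0.96. The rises were those of the metallothionein gene *Mt1* (0.32, adjusted p = 0.00379), of *Bmp4* (0.27, adjusted p = 0.00231) and of the clusterin gene *Clu* (0.21, adjusted p = 0.0134, and 0.0604 with library totals). The largest falls were those of the plasma protein genes *Ambp* (-2.67, adjusted p = 0.00982), *Hpx* (-2.41, adjusted p = 0.0138) and *Ttr* (-2.25, adjusted p = 0.0221), and each of these had the same order of libraries as the hepatocyte sum. *Ttr*, also a hepatocyte and endoderm marker, was at 24.2, 16.1 and 2.06 CPM in WT ASCs and at 1.63, 6.45 and 0.459 CPM in *Bdh2*-knockout ASCs, so the genotypes overlapped. In the hepatocyte list, edgeR called 18 of 21 tested genes lower and 0 higher, where 20.8% of all tested genes were lower, but the summed levels overlapped between the genotypes. That count was 0 with DESeq2 and 0 with limma-voom, with 4 genes lower at an unadjusted p under 0.05 by each tool. It was also 0 with the hepatocyte covariate, with 0 lower and 1 higher at that p. The covariate is itself a mean over 19 hepatocyte genes, so this last 0 is no separate check. Without WT ASC replicate 2 the count of hepatocyte genes called lower was 4. It was 0 without WT replicate 1 or knockout replicate 1 or 3, with 2, 13 and 14 genes lower at an unadjusted p under 0.05. The count of called ligands was 6 without WT ASC replicate 1 or 2, 23 without replicate 3 and 5 without *Bdh2*-knockout ASC replicate 1 or 3, and it was 4 with DESeq2 and 4 with the hepatocyte covariate, under which the median was 0.12. With DESeq2 the adjusted p was 0.0654 for *Ambp*, 0.0855 for *Hpx* and 0.141 for *Ttr*, and without WT ASC replicate 1 it was 0.0645, 0.0945 and 0.128. With limma-voom and with the hepatocyte covariate these calls were lost too.

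Single ligands that cubam and megalin carry in other tissues were named whatever their values. The retinol-binding protein gene *Rbp4* was at 11.7, 6.59 and 2.22 CPM in WT ASCs and 1.74, 4.77 and 2.0 CPM in *Bdh2*-knockout ASCs (-1.24, adjusted p = 0.0481), a call lost without WT ASC replicate 1 (adjusted p = 0.327) or 2 (0.101) or knockout replicate 1 (0.171) or 3 (0.154), with DESeq2 (0.198) and with the hepatocyte covariate (log2 fold change 0.13). The vitamin D binding protein gene *Gc* (-1.16, adjusted p = 0.0703) and the transferrin gene *Trf* (-0.96, adjusted p = 0.0553) did not pass the test, although both did without WT ASC replicate 3 (adjusted p = 8.6e-04 and 0.00214) or knockout replicate 2 (0.0275 and 0.0173), and without the filter on low counts. *Trf* also passed with library totals (0.0418) and with a mean count of at least 50 (0.0499). With the hepatocyte covariate the sign of both turned, to 0.38 for *Gc* and 0.05 for *Trf*. *Tcn2*, the gene of the plasma carrier of vitamin B12, went from 27.7 ± 1.70 to 21.5 ± 0.335 CPM (-0.37, adjusted p = 5.86e-04) without overlap. The gene of gastric intrinsic factor, the classic cubilin ligand, is listed as *Gif* and had 0, 1 and 0 counts in WT ASCs and 0, 0 and 2 in *Bdh2*-knockout ASCs, at or under the level of 3 counts throughout. *Apoe* was abundant at 1287 ± 61.7 and 1277 ± 7.79 CPM (-0.01, adjusted p = 0.863).

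The neonatal Fc receptor is itself related to class I molecules. Of other class I related genes, peptide-loading genes and *B2m*, 10 were tested, 2 rose and 3 fell (50%), with a median of -0.20, and with library totals 1 rose and 3 fell. *B2m*, whose protein *Fcgrt* needs at the surface, was at 28.6, 24.3 and 20.5 CPM in WT ASCs and at 24.4, 23.9 and 20.5 CPM in *Bdh2*-knockout ASCs (-0.08, adjusted p = 0.551), and the genotypes overlapped. The peptide transporter gene *Tap1* (0.45, adjusted p = 0.00338) and *Tapbp* (0.16, adjusted p = 0.0407) rose, and *H2-M3* (-0.68, adjusted p = 0.0174), *H2-D1* (-0.34, adjusted p = 4.19e-04) and *Azgp1* (-2.36, adjusted p = 0.0297) fell. *Azgp1*, a secreted liver protein gene, overlapped between genotypes and had a log2 fold change of 0.17 with the hepatocyte covariate. The count was 2 without WT ASC replicate 1 and 3 without WT replicate 2 or *Bdh2*-knockout ASC replicate 2 or 3, and with a library left out *Tapbp* was called in 1 case, without knockout replicate 1. The call of *H2-M3* was lost without WT replicate 1 (adjusted p = 0.0728) or knockout replicate 2 (0.072), and that of *Azgp1* without WT replicate 1 (0.187) or 2 (0.0771) or knockout replicate 1 (0.11) or 3 (0.105).

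The tissues best known for this machinery were checked by their markers. Of 13 kidney proximal tubule markers, 5 were at 0 in every library, and the phosphate transporter gene *Slc34a1* had 1 count over all 6 libraries. The list summed to 11.7, 11.0 and 10.7 CPM in WT ASCs and to 7.41, 7.40 and 8.88 CPM in the knockout, below every WT library and opposite to the receptor genes other than *Fcgrt*. Nearly all of it was *Ggt1*, a gene that many tissues use and the 1 marker of this list that could be tested, which fell. Most markers of primitive and visceral endoderm moved like the receptor genes other than *Fcgrt*: of 27 tested, 21 rose in the knockout, where 21.0% of all tested genes rose. The list was chosen with this contrast known. It holds genes such as *Gata4*, *Gata6* and *Sox17*, which the authors reported as higher in these libraries. Nothing is therefore read from its count beside that share. The 2 called lower, *Ttr* and *Hnf4a*, both lost their call when WT ASC replicate 1 or 2 or knockout replicate 1 or 3 was left out, when the hepatocyte covariate was added, and under DESeq2. The endoderm list summed to 2320, 2500 and 2390 CPM in WT ASCs and to 2950, 3120 and 3010 CPM in *Bdh2*-knockout ASCs. As CPM of the library total, the endoderm factor gene *Gata4* was at 5.34, 5.60 and 6.33 in WT ASCs and at 19.4, 20.3 and 22.0 in *Bdh2*-knockout ASCs. *Gata6* was at 1.53, 1.51 and 1.28 against 5.08, 6.03 and 5.67, and *Sox17* at 1.48, 1.06 and 1.36 against 8.82, 9.84 and 11.6. *Foxa2* was at 0.106, 0.505 and 0.321 against 2.12, 2.23 and 1.44. *Hnf4a*, a factor of visceral endoderm and liver, was at 4.28, 4.49 and 4.09 in WT ASCs against 2.72, 3.63 and 2.51 in the knockout without overlap (log2 fold change -0.47, adjusted p = 0.0389). Its adjusted p was 0.0721 with DESeq2, 0.264 with the hepatocyte covariate and between 0.0552 and 0.159 without any single library except knockout replicate 2. *Cer1*, a gene of the anterior visceral endoderm, was at 0 in every library. The part of these markers in the receptor levels was not tested, and in bulk RNA more cells of a type and more RNA per cell cannot be told apart.

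Markers of macrophages, which also hold *Dab2* and *Fcgrt*, summed to between 9.10 and 14.9 CPM, and the leukocyte gene *Ptprc* had 0 to 6 counts in a library. Most of this sum was the endosome and lysosome gene *Cd68*, which like *Dab2* was higher in every knockout library than in any WT library. Scaled by library totals, *Cd68* was at 8.35, 10.9 and 8.26 CPM in WT ASCs and 13.8, 12.1 and 13.7 CPM in the knockout. Within a genotype the 2 genes did not run together: replicate 2 was highest for *Cd68* and lowest for *Dab2* in WT ASCs, and the reverse in the knockout. Of 2 macrophage markers tested 1 rose, where 21.0% of all tested genes rose. Without WT ASC replicate 3, of 3 tested, 1 rose and 2 fell. The part of these markers in the level of *Dab2* was not tested. Endothelial markers, another known site of *Fcgrt*, summed to 94.8, 104 and 95.6 CPM in WT ASCs and to 70.1, 68.9 and 67.3 CPM in *Bdh2*-knockout ASCs, with 3 of 6 tested genes lower, where 20.8% of all tested genes were lower. Most of this was *Pecam1*, which pluripotent cells also express, and the vessel gene *Cdh5* had 0 to 8 counts in a library. Fibroblast markers summed to between 32.8 and 36.6 CPM in WT ASCs and between 23.2 and 28.6 CPM in *Bdh2*-knockout ASCs, with 2 of 6 tested lower, read against the same share. The part of the endothelial and fibroblast transcripts in the level of *Fcgrt*, which was lower in the same libraries, was not tested.

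**Figure D5:**
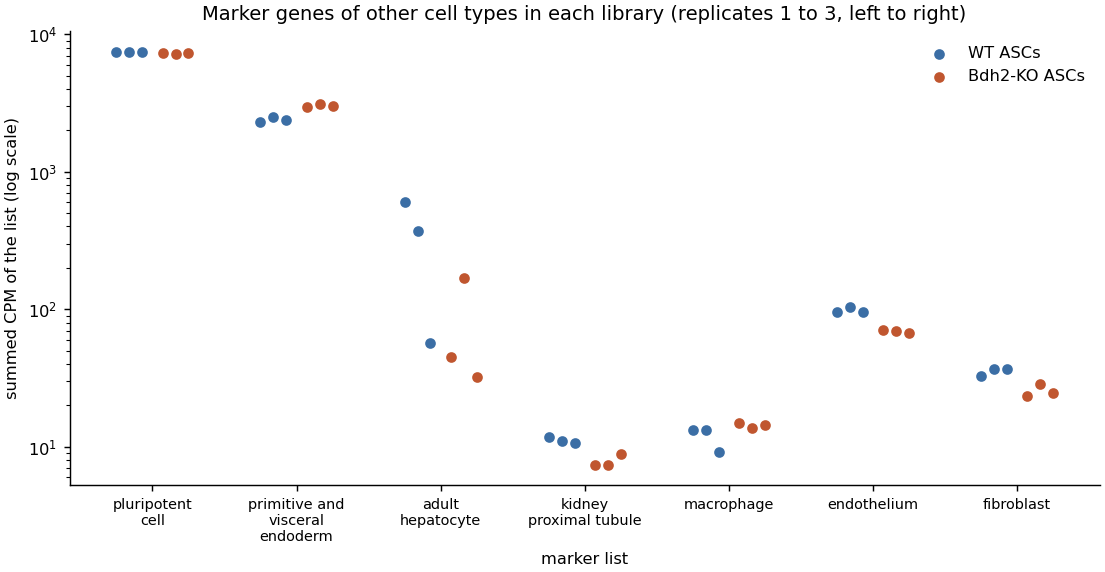
Summed CPM of the library total (log axis) of 7 marker lists in each library, with WT ASCs in blue and *Bdh2*-knockout ASCs in orange, replicates 1 to 3 from left to right in each group. The endoderm sums are higher in all 3 knockout libraries, and the hepatocyte sums range from 31.9 to 602 with overlap between the genotypes.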

How the data were processed

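RNA of 3 WT and 3 *Bdh2*-knockout ASC replicates had been sequenced. Per the labels and methods, the authors trimmed reads, mapped them with HISAT2 2.0.5 and counted them with FeatureCounts, and they deposited raw read counts per gene. Annotation release, strand setting and treatment of multiply mapped reads are not given in the sources used here. The gene positions in the table matched those of GENCODE M21 for all 6 genes.

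Genotypes were compared with the quasi-likelihood test of edgeR 4.0.16 under R 4.3.3, with TMM factors, default filterByExpr and no covariate, and Benjamini-Hochberg adjustment over 16758 genes, at a threshold of 0.05. CPM and FPKM were computed here. Log2 CPM used a prior count of 2. Marker lists were summed as CPM of library totals. DESeq2 1.42.0, limma-voom of limma 3.58.1, other scaling and filters, a hepatocyte score over 19 genes, the replicate block and leaving out each library were alternatives. The functions were tested on simulated counts with 200 changed genes. Figures were drawn with matplotlib 3.10.9 in Python 3.11.15, and sequences were read with pandas 2.3.3.

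The 6 genes and all lists were chosen with earlier results of these data known. Named genes are the 6 genes, *Bdh2*, partners fixed by name, the 3 largest called changes in each direction per list, the 3 genes most like each of the 6, and defining markers. Chromosomal neighbours were added after values were seen, and so were the promoter motifs. Values of some genes this rule names are not reported here.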

Additional observations from a re-analysis of the deposited data

How the results depend on the processing

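The log2 differences of *Cubn*, *Amn*, *Lrp2*, *Dab2*, *Lrpap1* and *Fcgrt* kept their sign under all 14 alternatives. Some moved by more than the SE of the main fit. *Fcgrt* went from -1.41 (SE 0.25) to -1.75 without knockout replicate 2, and *Lrp2* from 1.90 (SE 0.14) to 2.12 without WT ASC replicate 2. *Lrpap1* went from 0.60 (SE 0.06) to 0.68 with the hepatocyte covariate. Leaving out each library in turn gave 3.58 to 3.89 for *Cubn*, 1.13 to 1.37 for *Amn*, 1.78 to 2.12 for *Lrp2*, 2.57 to 2.65 for *Dab2*, 0.55 to 0.65 for *Lrpap1* and -1.75 to -1.16 for *Fcgrt*. Over all genes tested 6996 were called, and between 5093 and 7409 under the alternatives. Counts of called genes moved by over 1.5 times in 6 lists. For the ligands (15) the count was 4 with DESeq2, 5 with limma-voom, 4 with the hepatocyte covariate and 5 to 23 with each library left out. For class I related genes (5) it was 3 with DESeq2, with limma-voom, with a mean count of at least 50 and with the covariate, and 2 to 4 with each library left out. For the LDL receptor family (8) it was 5 without the filter on low counts, 5 with the replicate block, 4 with the covariate and 4 to 7 with each library left out. The early endosome (17) had 11 with the covariate and 9 to 20 with each library left out, the proton pump (8) had 5 and 5 to 10, and the clathrin coat (16) had 9 to 14 with each library left out. The cause was not tested, other than that leaving out a library leaves fewer samples. Same-numbered libraries of the genotypes did not vary together (correlations of -0.15, 0.10 and 0.25), so the numbers were not taken to pair samples. With the number as a replicate block 6452 genes were called, and the 6 differences were 3.77, 1.28, 1.91, 2.61, 0.60 and -1.43 in the order above. Among the genes named, the replicate block ended the calls of *Ocrl* (adjusted p = 0.07), *Tapbp* (0.0813) and *Cdc42bpb* (0.0674), and *Gc* (0.0054), *Abcb11* (0.00685) and *Trf* (4.73e-04) then passed, whereas the hepatocyte covariate turned the sign of *Gc*, *Abcb11* and *Trf* (0.38, 0.63 and 0.05). Of the 6 genes, *Cubn* in WT ASCs (13 to 27 counts) and *Fcgrt* in the knockout (22 to 47) rest on the fewest counts. Marker lists were put through the same alternatives after seeing the data: between 18 and 22 endoderm markers were called higher and between 0 and 2 lower, and between 0 and 22 hepatocyte markers were called. Of the macrophage markers, 3 of 11 tested were called without the filter on low counts and 2 of 2 with the replicate block.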
